A study of Bos taurus with 7 samples.

Results

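miR-223 and both arms of miR-142, microRNAs known from white blood cells, were followed in the cell-free part of cow blood. They are 3 of the 744 bovine miRNAs on the array, bta-miR-223, bta-miR-142-5p and bta-miR-142-3p, and were taken by name from the non-control probes. The software called 2 of the 3 detected on at least 1 array, and these 2 are among the 88 miRNAs that could be tested. Plasma came from 7 Japanese-Black cows (Bos taurus), each a separate animal on its own 1-colour array. Every cow had been artificially inseminated, and the plasma of both groups is from day 21 afterwards. The 4 pregnant cows carry the numbers 1 to 4, and the 3 non-pregnant cows the numbers 1, 3 and 4. The comparison asks whether plasma miRNAs differ between cows that became pregnant and cows that did not, at the same time after the same procedure. No treatment, age or parity is given in the labels.

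miR-223 is made mainly in the myeloid line, in neutrophils, monocytes and their precursors, and platelets carry it too. It is best known for restraining the growth and activation of granulocytes. miR-142 is made across the blood-forming lineages, and its hairpin is cut into a 5′ arm (5p) and a 3′ arm (3p), both of which can enter the silencing complex and which repress different targets. Outside blood cells both miRNAs are scarce, so in plasma they are usually read as RNA released from blood cells, in vesicles, in protein complexes or by cell breakage. In a plasma sample, RNA from more blood cells and more RNA released per cell cannot be told apart.

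Each miRNA is read by 2 probes, which differ by a single base and show how alike or unlike the 3 targets are. The part of each probe that pairs with the miRNA is given here 5′ to 3′, with the base that only the longer probe holds in capitals.
miR-223 shorter probe: tggggtatttgacaaactga
miR-223 longer probe: tggggtatttgacaaactgaC
miR-142-5p shorter probe: gtagtgctttctactttat
miR-142-5p longer probe: gtagtgctttctactttatG
miR-142-3p shorter probe: catccataaagtaggaaa
miR-142-3p longer probe: catccataaagtaggaaaC
The pairing parts of the longer probes have 42.9% G and C for miR-223, 35% for miR-142-5p and 36.8% for miR-142-3p. No probe of another miRNA (0 of 1615) shares a run of 12 bases with any of these.

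The RNA stretches that the longer miR-142 probes pair with show how the arms can pair with each other in their hairpin. Their longest mutually complementary run, 10 bases, is in capitals.
miR-142-5p stretch: CAUAAAGUAGaaagcacuac
miR-142-3p stretch: guuucCUACUUUAUGgaug
On the build of the array design, bosTau6 (UMD 3.1), the longer miR-142-5p probe lies at chr19:8516968-8516987 and the longer miR-142-3p probe at chr19:8517010-8517028, with 22 bases between them. The design lists the same pair a second time, at chr19:9527320-9527339 and chr19:9527362-9527380, 1010352 bases from the first place. Again 22 bases lie between the 2 probes. Signal from the 2 listed places cannot be told apart, since the probes are identical. The longer miR-223 probe is placed at chrX:99936372-99936391, an interval of 20 positions for its 21 bases. In RefSeq's annotation of a later assembly (ARS-UCD2.0, used for names only), MIR142 overlaps TSPOAP1 and a long non-coding RNA, with LPO and MPO, genes of peroxidases, on one side. MIR223 overlaps VSIG4 and another long non-coding RNA, next to MSN.

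The arrays differed in brightness. Between 90 and 101 miRNAs were called detected in pregnant cows and between 45 and 84 in non-pregnant cows, and the summed miRNA signal ran from 12079 (non-pregnant 1) to 101065 (pregnant 3). Of the 744 miRNAs, 620 were detected on no array. All 7 arrays lay on 1 slide, pregnant cows in row 1 and non-pregnant cows in row 2, so the slide row and the pregnancy status cannot be told apart. Signals are given as the software's intensity per miRNA and as its share of the array's summed miRNA signal. Scaled levels are given as log2 of the mean spot signal over the array's 75th percentile, averaged over the 2 probes. A floor of -6.36 was set on the scaled log2 level of each probe. Brightness depends on the probe, so the level of one miRNA does not order its amount against another's.

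miR-223 was detected in the plasma of all 7 cows and was higher on average in pregnancy, but with groups that overlapped. Its signal was 123, 369, 240 and 357 in pregnant 1 to 4, and 55.9, 96.5 and 152 in non-pregnant 1, 3 and 4. Pregnant 2, 3 and 4 lay above all non-pregnant cows, while pregnant 1 lay below non-pregnant 4. Pregnant cows averaged 272 ± 115 (SD, n = 4), and non-pregnant cows averaged 101 ± 48.1 (SD, n = 3). These signals were measured well clear of background, since all 140 of its spots over the arrays were well above it and the signal was 11.6 to 12.6 times the software's own error on every array.

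Scaling for brightness changed the order of the cows. The probes that set the divisor include both miR-223 probes. On pregnant 4 the divisor, 415, was the mean of the longer miR-223 probe. That probe's scaled log2 level there is 0 by construction, so scaled miR-223 levels are not independent of their divisor. The scaled log2 level of miR-223 was -2.89, -0.88, -3.41 and -0.88 in pregnant 1 to 4, and -2.27, -4.03 and -3.14 in non-pregnant 1, 3 and 4. Pregnant 2 and 4 stood highest, pregnant 3 fell below both non-pregnant 1 and 4, and non-pregnant 1, the lowest cow by unscaled signal, became the third highest. The highest and the lowest cow were 8.85-fold apart on this scale. The group means were -2.01 ± 1.33 (SD, n = 4) and -3.15 ± 0.88 (SD, n = 3), a log2 difference of 1.13 with a standard error of 0.80 and a 95% interval of -0.80 to 3.07. Its limma p was 0.204, and 0.743 after adjustment over the 88 tested miRNAs, so it did not pass. No miRNA of the 88 did (0.00%), 1 had an unadjusted limma p under 0.05, and an exact permutation test per miRNA called 0. That last test could scarcely have called any. The smallest p it allows, 0.0286, passes adjustment over 88 only if many miRNAs reach it together. The difference of miR-223 was the third largest among the pregnant-side differences of the 88, beside a median of 0.18. Its spread within groups was also the second widest of the 88, a residual SD of 1.17 against a median of 0.35. Both ranks and medians depend on the floor. It narrows the differences and spreads of miRNAs that sit on it, while miR-223 was at the floor on no array. Over the 40 miRNAs detected on all 7 arrays the median difference was -0.003.

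The shorter and the longer miR-223 probe gave near-equal differences, 1.17 and 1.09 on the scaled log2 level. Without scaling, its log2 level was 6.35, 7.91, 7.28 and 7.82 in pregnant 1 to 4 and 5.15, 6.01 and 6.53 in non-pregnant 1, 3 and 4, a difference of 1.44. The groups overlapped here through pregnant 1 and non-pregnant 4 alone.

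**Figure D1:**
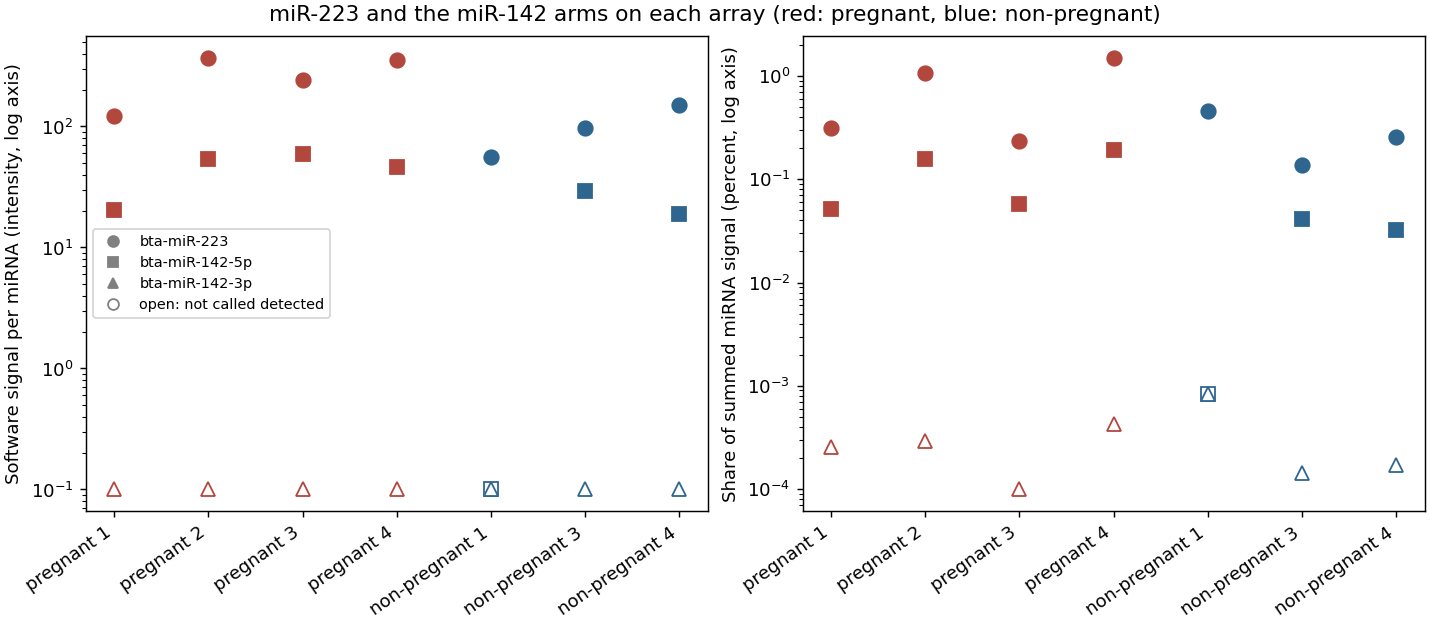
Software signal per miRNA (left, intensity on a log axis) and share of the array's summed miRNA signal (right, percent on a log axis) of miR-223 (circles), miR-142-5p (squares) and miR-142-3p (triangles) on each of the 7 arrays, with pregnant cows in red and non-pregnant cows in blue. Open symbols stand for miRNAs not called detected, which the software sets to 0.1, and miR-142-3p is open on all 7 arrays.

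As a share of all miRNA signal, miR-223 made up 0.314%, 1.07%, 0.238% and 1.5% in pregnant 1 to 4 and 0.463%, 0.137% and 0.260% in non-pregnant 1, 3 and 4. Only pregnant 2 and 4 exceeded every non-pregnant cow. The means were 0.782% ± 0.611 (SD, n = 4) and 0.286% ± 0.165 (SD, n = 3), and the difference of 0.495 percentage points did not pass a two-sided exact permutation test (p = 0.314, 0.709 adjusted over 88 miRNAs). The smallest p this design allows is 0.0286, which passes adjustment over 88 only if many miRNAs reach it together. Without pregnant 4 the difference was 0.255 percentage points. The size of the shares depends on a few bright miRNAs in the sum. With the 8 brightest left out, the difference was 3.52 percentage points.

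miR-142-5p was detected in all 4 pregnant and 2 of 3 non-pregnant cows, and its mean signal was again higher in pregnancy. Its signal was 20.2, 54.1, 58.8 and 46.0 in pregnant 1 to 4, and 29.3 and 18.8 in non-pregnant 3 and 4. In non-pregnant 1 it was not called detected, so 6 of 7 arrays detected it. Pregnant 1 lay below non-pregnant 3, so the groups overlapped in signal. Counting the undetected array at the software's 0.1, the means were 44.8 ± 17.2 (SD, n = 4) and 16.1 ± 14.8 (SD, n = 3).

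After scaling, the 4 pregnant cows lay above the 3 non-pregnant cows. The scaled log2 level of miR-142-5p was -5.42, -3.55, -5.33 and -3.98 in pregnant 1 to 4, and -5.68, -5.71 and -5.83 in non-pregnant 1, 3 and 4. Pregnant 2 and 4 were far above the rest, as they were for miR-223, and pregnant 1 and 3 lay close to the non-pregnant cows. The means were -4.57 ± 0.95 (SD, n = 4) and -5.74 ± 0.081 (SD, n = 3), a log2 difference of 1.17 with a standard error of 0.51 and a 95% interval of -0.055 to 2.39. The limma p was 0.0581, the second smallest of the 88 miRNAs, and 0.743 after adjustment over all 88, so it did not pass. miR-142-5p was the only miRNA of the 88 (1.14%) with every pregnant level above every non-pregnant level on this scale. The floor limits this count, since a miRNA with any pregnant cow at the floor cannot lie apart in that direction. Without scaling the groups overlapped, at 3.83, 5.24, 5.36 and 4.72 against 3.09 (at the floor), 4.31 and 3.74, while 8 of the 88 (9.09%) had groups apart in that direction.

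The narrow spread of the non-pregnant cows came with values near the floor. The shorter probe sat at the floor of -6.36 in all 3 non-pregnant cows, which leaves its difference, 1.09, no way to be negative. On non-pregnant 3 that probe had a mean of 12.5 and 8 of 10 spots well above background. There the array's divisor, 1052, brought it to the floor. The longer probe gave 1.25, and its lowest pregnant level, -4.87, was close to its highest non-pregnant level, -4.99. That highest level was from non-pregnant 1, where 0 of 10 spots of the longer probe were well above background and the array's divisor was the smallest, 172 against 415 to 1645 elsewhere. Its level there is a bound and not a measurement. The printed differences include it, and without non-pregnant 1 the difference of miR-142-5p was 1.15.

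**Figure D2:**
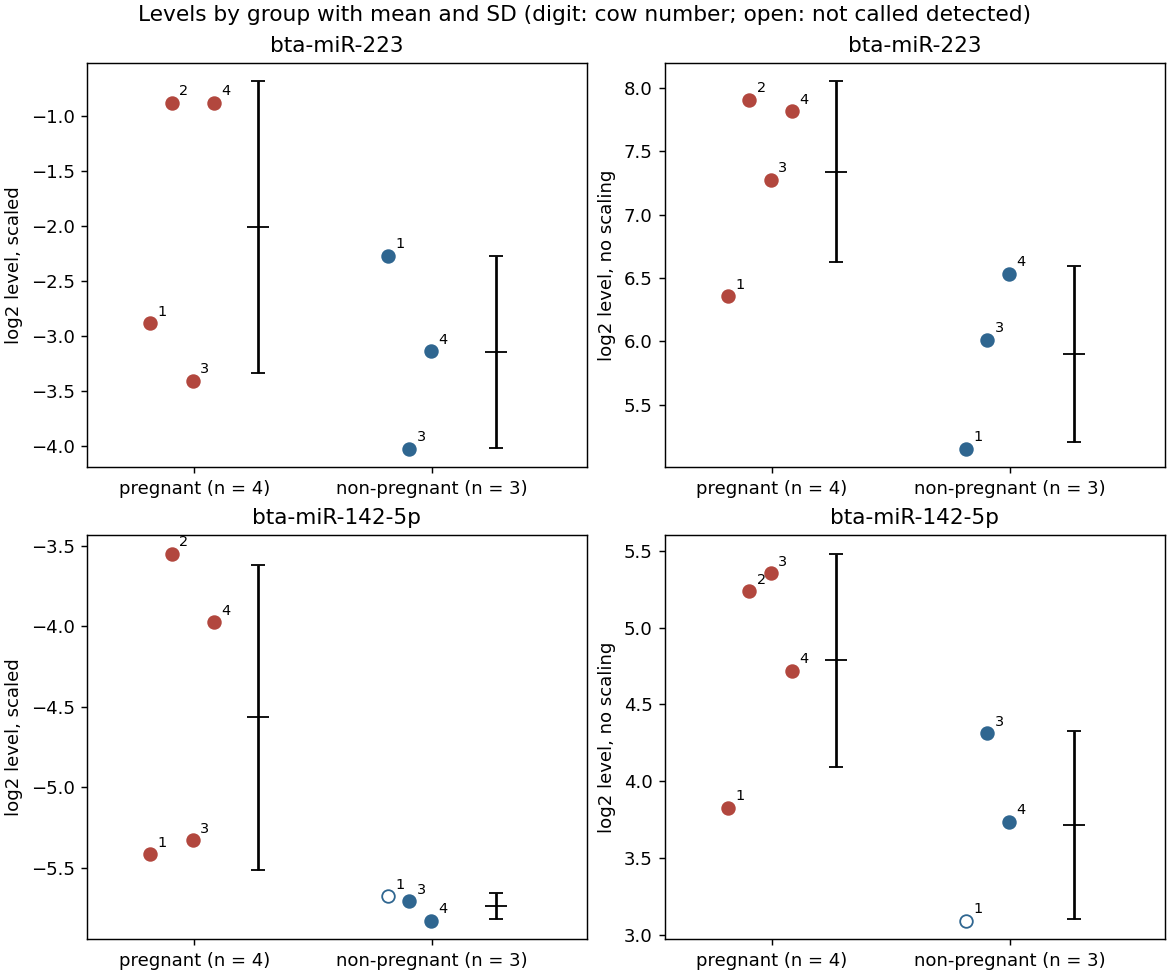
Log2 levels of miR-223 (top) and miR-142-5p (bottom) by group, scaled to each array's 75th percentile (left) and with no scaling (right). Each point is 1 cow with its number, bars give the mean with the SD (n = 4 and n = 3), and the open point is a cow in which miR-142-5p was not called detected. The scaled miR-142-5p levels do not overlap between groups, and those of miR-223 do.

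The share of miR-142-5p in all miRNA signal also lay apart between the groups. It was 0.0515%, 0.157%, 0.0582% and 0.194% in pregnant 1 to 4, and 0.0416% and 0.0321% in non-pregnant 3 and 4, with non-pregnant 1 not detected. The lowest pregnant share was close to the highest non-pregnant share. Such a separation was found for 12 of the 88 tested miRNAs (13.6%), so it was not rare. The difference of the mean shares, 0.0904 percentage points, had an exact permutation p of 0.114, and 0.575 after adjustment over the 88.

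The single spots show how firmly miR-142-5p was measured. Over the arrays, 105 of its 140 spots were well above background. The longer probe had all 10 of 10 spots well above background on the 6 arrays where the miRNA was detected, with means of 20.7, 56.2, 61.2 and 57.1 in pregnant 1 to 4 and 31.6 and 20.8 in non-pregnant 3 and 4. The shorter probe had 9, 10, 10 and 5 such spots in pregnant 1 to 4 and 0, 8 and 3 in non-pregnant 1, 3 and 4. On pregnant 4 the shorter probe was uneven, from -6.65 to 27.9. There, 8 of its 10 spots lay at array columns from 60 upward, where the mean was 8.38 against 27.3 for the others. Probes detected on all arrays were dimmer in those columns as well, at a median ratio of 0.710 on pregnant 4 and 0.822 on non-pregnant 4, against 0.963 to 0.999 on the other arrays. Without pregnant 4 the difference of miR-142-5p was 1.02. The column limit was chosen after the values were seen, and its part in the difference was not tested otherwise.

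**Figure D3:**
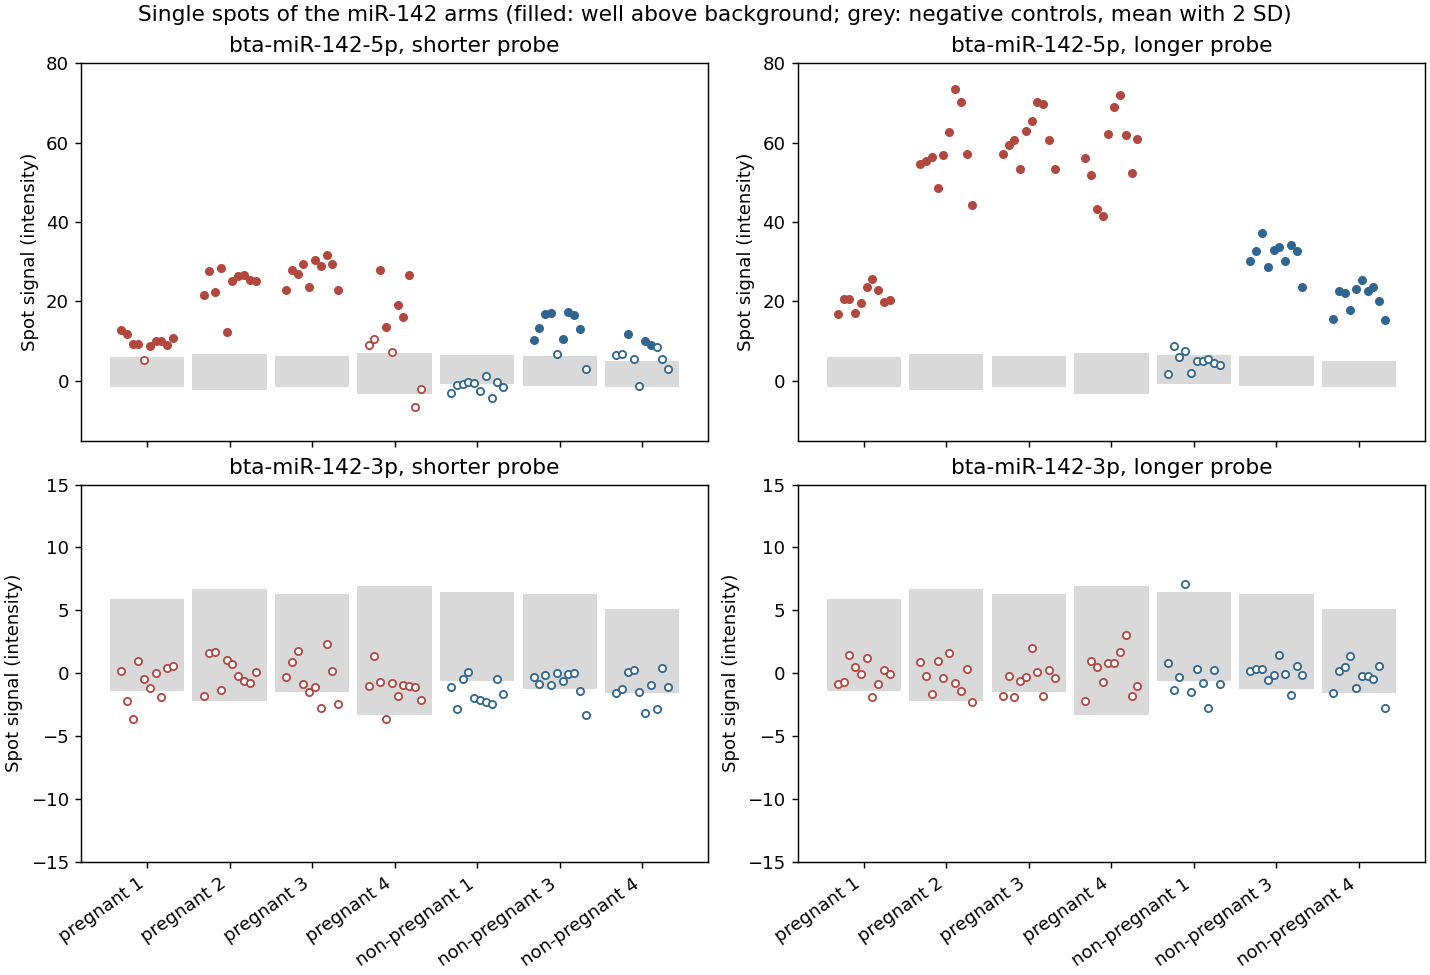
Signal of each single spot (intensity) of the shorter and longer probes of miR-142-5p (top) and miR-142-3p (bottom) on each of the 7 arrays, pregnant cows in red and non-pregnant cows in blue. Filled points are well above background by the software's call, and grey bars span 2 SD either side of the mean of each array's negative control spots. No miR-142-3p spot is filled, while 105 of 140 miR-142-5p spots are.

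The arms of miR-142 were unlike in detection. miR-142-3p was called detected on 0 of 7 arrays, against 6 of 7 for miR-142-5p, and 0 of its 140 spots were well above background, against 105 of 140. Its spots averaged -0.47 ± 1.44 (SD over 140 spots), from -3.67 to 7.14, while the 3038 negative control spots of the 7 arrays averaged 2.28 ± 2.04 (SD). Its probe means ran from -1.53 to 0.48. Among the 1360 probes of miRNAs that no array detected, these means stood between the 33.0th and the 77.2nd percentile of the same array, so they were ordinary for probes with no detected signal. In no cow was the 3p arm told apart from background, in pregnant or non-pregnant animals.

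Because 1 arm was not detected, no ratio of the arms and no difference of miR-142-3p between groups was tested. The result does not order the amounts of the arms in plasma, since probes of different sequence differ in brightness and the response of the miR-142-3p probes to their target was not measured here. In length and base composition the probes were close, 18 and 19 bases with 33.3% and 36.8% G and C for the 3p arm against 19 and 20 bases with 31.6% and 35% for the 5p arm.

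On the scaled level, miR-223 and miR-142-5p were highest in the same 2 cows. Over the 7 arrays their scaled log2 levels had a Pearson r of 0.879 (exact permutation p = 0.0238, 0.0819 adjusted over 86 correlations with miR-223) and a Spearman rho of 0.643 (exact permutation p = 0.139, 0.260 adjusted). Without pregnant 2 alone r was 0.800, and without pregnant 4 alone 0.816. Without both, the cows farthest from the median of miR-223, r was 0.011 over 5 arrays. In the 3 non-pregnant cows among these 5 arrays the shorter miR-142-5p probe sat at the floor, which narrows their levels. That r therefore cannot decide whether the relation rests on pregnant 2 and 4. Those 5 arrays include non-pregnant 1, where miR-142-5p was not called detected. Over the 6 arrays with it detected, pregnant 2 and 4 among them, r was 0.947 and rho 0.657. Over all 7 arrays without scaling r was 0.861, and 0.652 without the farthest cows, pregnant 2 and non-pregnant 1. Both levels of a cow come from the same array and share its divisor. On pregnant 4 that divisor was the mean of the longer miR-223 probe.

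**Figure D4:**
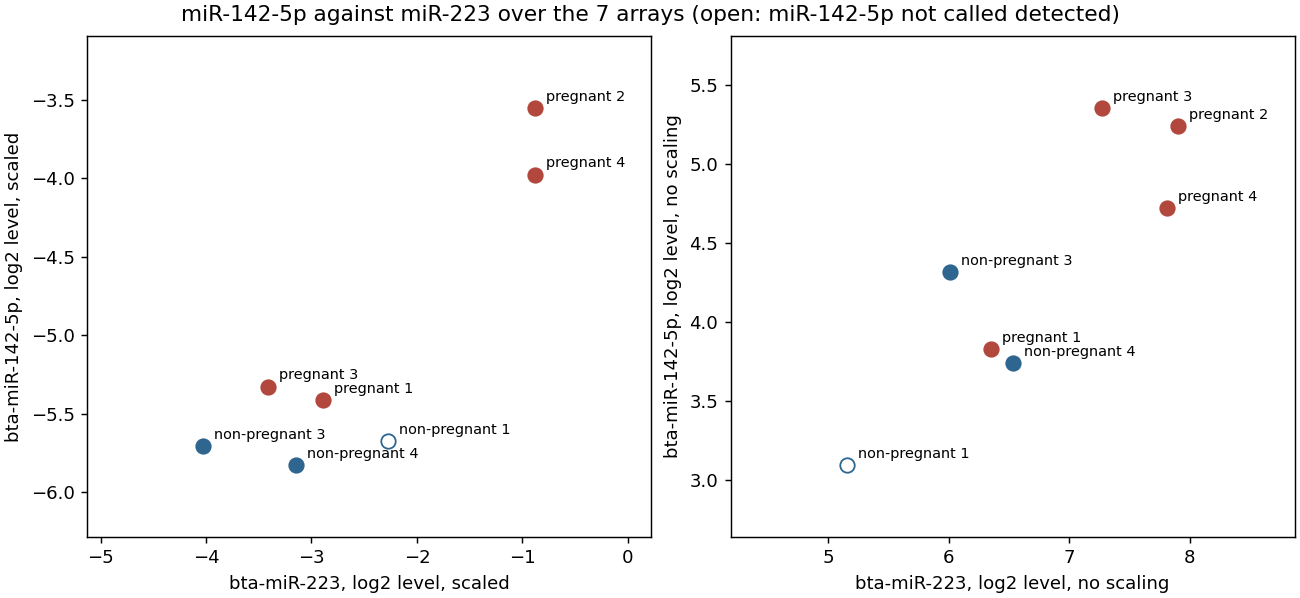
Log2 level of miR-142-5p (vertical) against that of miR-223 (horizontal) in each of the 7 cows, scaled (left) and with no scaling (right), pregnant in red and non-pregnant in blue, and open where miR-142-5p was not called detected. On the scaled axis pregnant 2 and 4 lie apart at the upper right, and the other 5 cows show no shared order.

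Within an array, the log2 ratio of the longer miR-223 probe to the longer miR-142-5p probe was taken from unscaled means without a floor, a reading chosen after the values were seen. It was 2.71, 2.90, 2.16 and 2.86 in pregnant 1 to 4 and 1.74 and 3.12 in non-pregnant 3 and 4. Non-pregnant 1 gave 3.58, against a miR-142-5p probe with 0 of 10 spots well above background, so its ratio is no measurement. The pregnant values lay inside the range of the 2 measured non-pregnant values, and no unequal change of these miRNAs between the groups was seen at this spread.

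The miRNAs whose scaled levels most resembled miR-223 over the 7 arrays were miR-15a (r = 0.985), miR-20a (0.979), miR-27a-3p (0.961), miR-25 (0.961) and miR-27b (0.951). Of these, miR-15a and miR-25 are on the red-cell list read below, and miR-27a-3p is on the white-cell list. Without scaling the r values of the 5 were 0.964, 0.935, 0.920, 0.902 and 0.909. Of the 86 correlations with a value, 12 (14.0%) passed the adjusted exact permutation test, and the median r was 0.590. miR-142-5p ranked 22nd. miR-27a-3p and miR-27b sat at the floor on 3 of 7 arrays each and miR-15a and miR-20a on 1, so part of the likeness was measured between few arrays.

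Of the other miRNAs listed as known from white cells, 19 were on the array and 4 (21.1%) were detected on any array, beside 124 of 744 (16.7%) for the array as a whole. The 3 that entered the test had positive differences and none passed limma's adjusted test, with a median log2 difference of 0.34, beside 62 of 88 positive and a median of 0.18 over all tested miRNAs. With miR-223 and miR-142 included, the list's summed signal made up 0.368% to 1.90% of all miRNA signal in pregnant and 0.224% to 0.532% in non-pregnant cows, and miR-223 supplied most of it. miR-29a, a repressor of collagen genes, was detected on all 7 arrays and differed by 0.54 (SE 0.32, limma adjusted p = 0.743). Its signal was 28.1, 32.7, 47.3 and 27.1 in pregnant 1 to 4 and 8.37, 21.5 and 13.3 in non-pregnant 1, 3 and 4. miR-27a-3p, from the cluster of miR-23a, differed by 0.34 (SE 0.32) with 1 pregnant and 2 non-pregnant cows at the floor. miR-23a was not well above background in any non-pregnant cow and sat at the floor there and in 2 pregnant cows, so no fold is given for it. Of the markers of lymphoid and activated cells, miR-150 was detected in pregnant 3 alone, at a signal of 7.53, and miR-155, miR-146a, miR-146b, miR-181a, miR-181b, miR-21-5p and miR-342 in no cow.

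Red-cell and platelet miRNAs were read on these arrays, since both cells can shed RNA into plasma. miR-451, matured in red cells without Dicer, had a signal of 11.2, 25.1, 11.3 and 14.1 in pregnant 1 to 4 and 5.07, 12.1 and 4.28 in non-pregnant 1, 3 and 4. miR-486, another abundant red-cell miRNA, had 35.7, 50.6, 57.2 and 38.1 in pregnant 1 to 4 and 18.5, 52.1 and 28.9 in non-pregnant 1, 3 and 4. Pregnant 2 was highest for miR-451, as it was for miR-223, and the groups overlapped for both red-cell miRNAs. On the scaled level miR-451 sat at the floor in pregnant 3 and non-pregnant 4. The scaled differences of miR-451 and miR-486 were 0.36 (SE 0.39) and 0.24 (SE 0.53), and neither passed limma's test. The red-cell list had 7 of 9 detected and 6 tested, all 6 positive with 0 called and a median of 0.40. Over all miRNAs, 124 of 744 (16.7%) were detected, and 62 of the 88 tested were positive with 0 called and a median of 0.18. The red-cell list made up 0.231% to 0.729% of the signal in pregnant and 0.166% to 0.504% in non-pregnant cows. Its defining member miR-144 was detected on no array.

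Platelet miRNAs were led by 1 member. Of 14 on the array, 4 were detected, 2 were tested, and 1 of the 2 was positive with 0 called. The list made up 0.0874% to 0.435% of the signal in pregnant and 0.0600% to 0.254% in non-pregnant cows, ranges that overlapped. miR-24-3p, found in platelets and many other cells and picked out after its values were seen, supplied most of it. Its signal was 57.0, 74.8, 60.5 and 88.7 in pregnant 1 to 4 and 23.8, 34.9 and 52.2 in non-pregnant 1, 3 and 4, with the lowest pregnant cow close to the highest non-pregnant cow. Its scaled difference was 0.67 (SE 0.75, limma adjusted p = 0.772), and its scaled level correlated with miR-223 at r = 0.937 over the 7 arrays (exact permutation p = 0.0310 after adjustment over 86). miR-126-3p, on both the platelet and the vessel-wall list, was detected in pregnant 4 alone at 7.37. miR-191, on the platelet list, was detected in no cow. Liver miRNAs had 3 of 4 detected and 2 tested with 0 called, and vessel-wall miRNAs 1 of 5 detected and none tested. Beside these lists, 124 of 744 miRNAs (16.7%) were detected on the array as a whole, and 62 of the 88 tested were positive with 0 called.

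The longer probe of miR-486 had at least 8 of 10 spots well above background on every array. It allowed a ratio to a red-cell miRNA within each array, a reading not planned before the values were seen. The log2 ratio of the longer miR-223 probe to that of miR-486 was taken from unscaled means without a floor. It was 1.98, 3.00, 2.32 and 3.37 in pregnant 1 to 4 and 1.80, 1.12 and 2.60 in non-pregnant 1, 3 and 4. Pregnant 1 and 3 lay below non-pregnant 4, and the difference of the means, 0.83, was close to the spread (SD 0.63 and 0.74). For miR-142-5p the same ratio was -0.74, 0.10, 0.16 and 0.51 in pregnant 1 to 4 and -0.63 and -0.52 in non-pregnant 3 and 4, with miR-142-5p at background in non-pregnant 1. Pregnant 1 lay below both measured non-pregnant cows, and the other 3 pregnant cows lay above them. No ratio to miR-451 is given, since it was near background in 2 of 3 non-pregnant cows. The part of red-cell or platelet RNA, of array brightness and of the number of detected miRNAs in the pregnant-side values of miR-223 and miR-142-5p was not tested beyond these values.

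**Figure D5:**
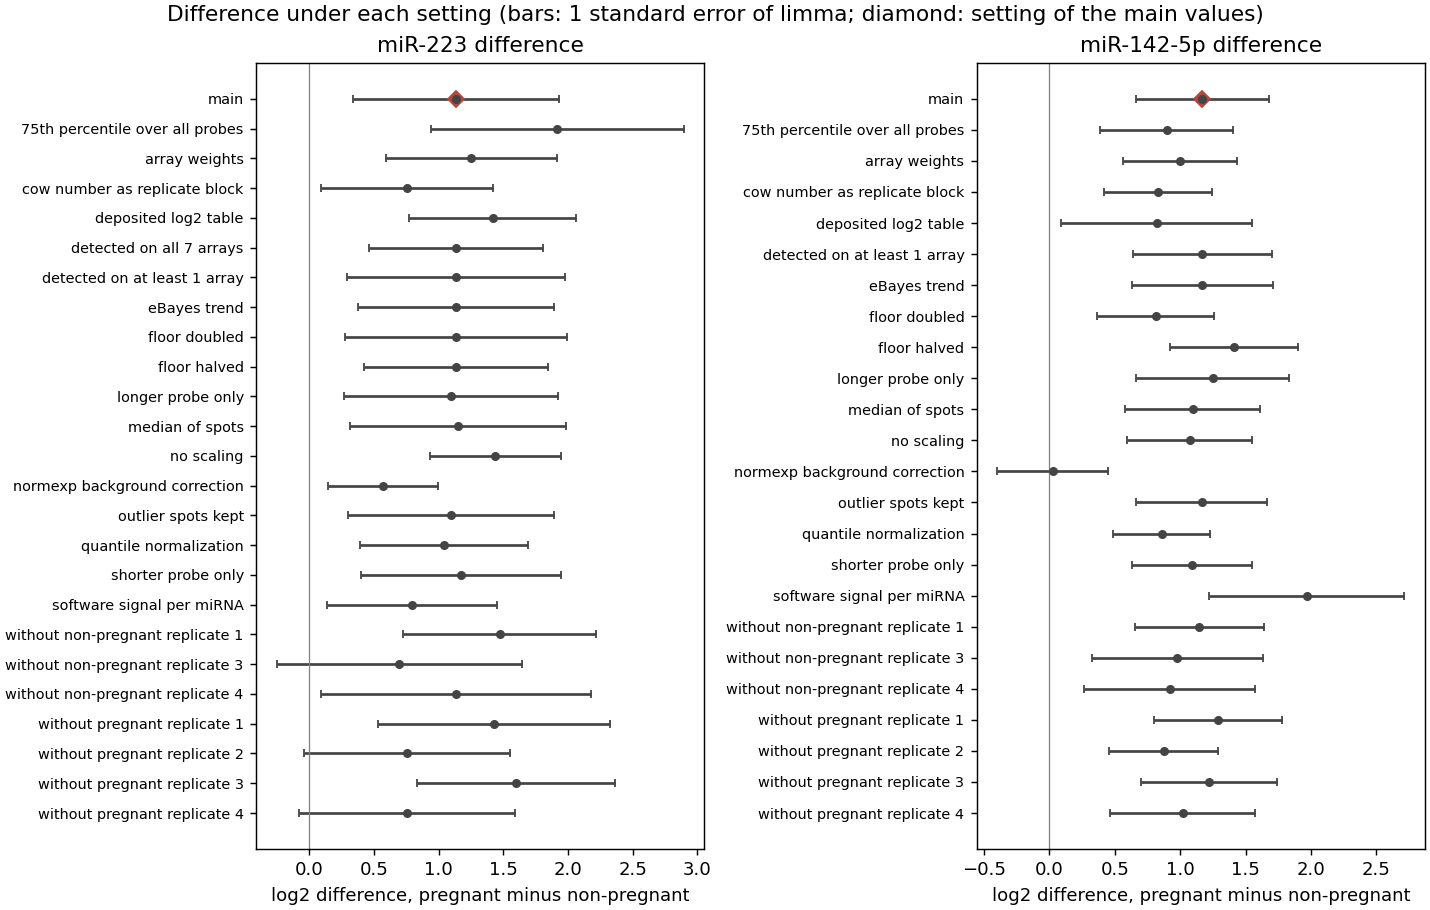
Log2 difference, pregnant minus non-pregnant, of miR-223 (left) and miR-142-5p (right) under the main setting (diamond) and each alternative, with bars of 1 standard error from limma. All values are positive, from 0.57 to 1.92 for miR-223 and from 0.026 to 1.97 for miR-142-5p, and none passed after adjustment.

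Both differences stayed on the pregnant side under every setting run, but their size depended on the processing. Normexp background correction, which adds an offset of 50 to every spot, gave 0.57 for miR-223 and 0.026 for miR-142-5p, and moved the median of all tested miRNAs from 0.18 to -0.19. Scaling by the 75th percentile over all probes gave 1.92 for miR-223. Since 620 miRNAs (83.3%) were detected on no array, that percentile lies at background level and is a poor measure of brightness. The software's signal per miRNA gave 1.97 for miR-142-5p, with non-pregnant 1 at the floor. Without non-pregnant 3, miR-223 differed by 0.69.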

How the data were processed

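Plasma miRNA of 7 cows was labelled with Cy3 and hybridised to 1-colour Agilent miRNA arrays, per the labels' protocols. Scans were quantified by Agilent Feature Extraction 11.0.1.1, and probes were placed on bosTau6 (UMD 3.1), per the file headers. Spot intensity as deposited had its background subtracted and was not scaled between arrays, and the deposited intensity per miRNA is set to 0.1 where it was not called detected. The authors' deposited log2 table equals log2 of that intensity plus 3.32 (within 7.35e-06, 730 names matched). It is not scaled between arrays, and the meaning of that constant is unknown here.

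Control and outlier spots were left out. The remaining spots were averaged per probe and divided by the array's 75th percentile over 57 probes detected on all arrays (over 50% of spots well above background). These 57 include both miR-223 probes. Scaled values were floored at 0.0122 (log2 -6.36, the median over arrays of the lowest detected scaled value) and averaged on the log2 scale over probes. miRNAs detected on at least 3 arrays (88) were tested with limma 3.58.1 (R 4.3.3; lmFit, eBayes, two-sided, Benjamini-Hochberg threshold 0.05), all 7 arrays, no covariate. Shares and correlations were tested by exact permutation (Python 3.11.15, scipy 1.17.1), over 35 groupings for shares. The procedure was tested on simulated data. Precision is limited by the number of arrays, 4 and 3.

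The members, marker lists and tests were chosen with earlier results of these data known. The rule named the 3 members, tested members of the white-cell list, red-cell and platelet markers, and the 5 miRNAs with the highest r with miR-223. Alternatives changed the background correction, scaling, spot summary, floor, filter, variance model, share denominator and arrays used. Using only 1 probe was added after seeing the data.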

Additional observations from a re-analysis of the deposited data

How the results depend on the processing

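The number of miRNAs past the adjusted limma threshold was 0 under all 16 alternatives and without any 1 array, with 0 to 10 at an unadjusted p under 0.05. The exact permutation test also called 0, an outcome nearly fixed by the smallest p it allows, 0.0286. The differences of miR-223 and miR-142-5p, their shares and their correlation kept their direction and stayed on the same side of the threshold under every alternative run. Their sizes did not stay the same. With the 8 brightest miRNAs left out of the sum, the shares differed by 3.52 percentage points for miR-223 and 0.730 for miR-142-5p. Leaving out each array in turn gave 0.69 (without non-pregnant 3) to 1.60 (without pregnant 3) for miR-223 and 0.88 (without pregnant 2) to 1.29 (without pregnant 1) for miR-142-5p. It gave 0.255 to 0.677 percentage points for the share of miR-223, 0.0642 to 0.112 for that of miR-142-5p, and 0.800 to 0.919 for the correlation, which was 0.264 with the software's signal per miRNA. Halving and doubling the floor gave 1.41 and 0.81 for miR-142-5p, and the deposited log2 table, blank for non-pregnant 1, gave 0.82, and 1.42 for miR-223. On the log2 scale the share of miR-142-5p differed by 3.24, a value set largely by the 0.1 of non-pregnant 1.

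With cow number as a replicate block the differences were 0.76 for miR-223 and 0.83 for miR-142-5p, and 0 miRNAs were called. The numbers are only shared labels of different animals, and the deviations of same-numbered cows correlated at 0.094, 0.65 and -0.20 for cows 1, 3 and 4. No difference, share or arm contrast of miR-142-3p was tested under any alternative, since it was detected on no array. Faint signal limits miR-142-3p, which was at background on all arrays. The shorter miR-142-5p probe was on the floor in every non-pregnant cow. In non-pregnant 3 this came with a large divisor, since 8 of 10 spots were well above background.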
